A study of Mus musculus with 4 samples.

Results

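The genes described here encode the collagens, the laminins and the integrins of the mouse. They were chosen by name from the deposited count table, as protein-coding rows whose symbol is Col, a number, the letter a and a number, or Lama, Lamb or Lamc with 1 digit, or Itga or Itgb with 1 or 2 further characters. Of the 29300 genes in the table, 83 were members, of which 44 were collagens, 11 were laminins and 28 were integrins. Itgbl1 and Itgb2l were taken in by the rule, although both are named as integrin beta-like genes and not as receptor subunits. All mice were C57BL/6 males of 7 to 8 months that received isoflurane anesthesia and tramadol for pain. Control mice, labelled sham, had no fracture, and surgery mice had a tibial fracture fixed with an intramedullary nail. Hippocampal mRNA was sequenced on day 1, with 1 library for each of 2 control and 2 surgery mice. A naive group without anesthesia or tramadol was not analysed here, so each comparison is of fracture added to both.

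Collagens are secreted or membrane-bound proteins whose chains wind into a triple helix, and laminins are cross-shaped trimers of an alpha, a beta and a gamma chain. Type IV collagen and laminins form the sheet-like basement membrane, which in the hippocampus surrounds blood vessels and lies beneath the pia and the choroid plexus epithelium. Integrins are receptors made of an alpha and a beta subunit that bind such matrix, other cells or latent TGF-beta at the cell surface. Neurons, glia, vascular cells and microglia each carry different integrin pairs.

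The 4 libraries held between 15763432 and 18573386 counts assigned to genes. Values are given as normalised read counts (CPM), that is counts per library size scaled by the trimmed mean of M values (TMM), and 17144 genes passed the filter on low counts. The filter kept 43 collagens, 11 laminins and 24 integrins, and the surgery against control comparison was made with edgeR's quasi-likelihood F test, Benjamini-Hochberg adjusted over all 17144 genes. A gene was called at an adjusted p under 0.05, and a called gene counted as a differentially expressed gene (DEG) when surgery over control reached 1.5 or dropped to 0.67 or below. The 8 neuronal markers summed to between 9669 and 11303 CPM across the libraries, and none was at 0 in any. The 10 choroid plexus markers, in contrast, summed to 299, 7036, 2726 and 4381 CPM in control mice 1 and 2 and surgery mice 1 and 2. In all genes tested, 13.1% were called higher and 12.8% lower after surgery. Because the tissue was sequenced in bulk, fewer cells of a type and less RNA per cell cannot be told apart.

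More integrins were called higher than lower at 1 day after surgery. Of the 24 integrins tested, 8 rose (Itgb8, Itgbl1, Itgav, Itga4, Itga6, Itgam, Itgb1 and Itga1), beside 13.1% of all genes called higher. Only 1 fell (Itgb5), beside 12.8% of all genes called lower. The 8 that rose were 1.40 to 2.24 times as high in surgery mice as in control mice, and 7 of them were DEGs, beside 6.75% of all genes that were DEGs with a fold of at least 1.5. No integrin was a DEG in the lower direction, beside 2.25% of all genes. The median log2 fold change of the 24 integrins was 0.20, against 0.01 in all genes tested. Without control mouse 2, 4 integrins were called higher, while over all genes that number went from 2250 to 1201. Itgb8, Itgav, Itga4 and Itgbl1 were called whichever mouse was left out, in fits that set 1 mouse against 2 and take the spread from the group with 2. With a correction of each library for transcript length and GC content, 0 of these 9 were called.

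The promoters of 3 integrins that rose are shown as those of the called member with the highest fold change and of 2 called members whose products pair: Itgam, the alpha subunit of the leukocyte receptor Mac-1, and Itgav and Itgb8, which together form the receptor for latent TGF-beta. Each run is a window of 300 bases around the annotated start of transcription in RefSeq (GRCm38.p6), written 5′ to 3′ on the strand of the gene. The windows are chr7:128062390-128062689 on the plus strand for Itgam, chr2:83724147-83724446 on the plus strand for Itgav, and chr12:119238227-119238526 on the minus strand for Itgb8. The Itgb8 window lies inside the gene of the count table, whose 5′ end is at 119238802, so that the start it is built on is further downstream. Capitals mark each exact match, on either strand, to the GC box GGGCGG, the CCAAT box, the TATA box TATAAA or GAGGAA, a purine-rich core of PU.1 sites.
Itgam: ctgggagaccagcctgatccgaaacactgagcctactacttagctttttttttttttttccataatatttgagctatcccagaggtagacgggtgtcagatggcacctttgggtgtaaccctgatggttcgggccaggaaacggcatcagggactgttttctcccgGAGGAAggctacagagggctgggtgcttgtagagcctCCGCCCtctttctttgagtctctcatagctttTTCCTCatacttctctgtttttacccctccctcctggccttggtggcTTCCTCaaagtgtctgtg
Itgav: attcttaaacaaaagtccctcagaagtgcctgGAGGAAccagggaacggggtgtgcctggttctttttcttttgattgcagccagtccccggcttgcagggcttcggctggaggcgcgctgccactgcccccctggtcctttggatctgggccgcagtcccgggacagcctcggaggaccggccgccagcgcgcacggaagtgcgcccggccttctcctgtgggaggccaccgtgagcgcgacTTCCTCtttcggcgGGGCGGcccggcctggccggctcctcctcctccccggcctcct
Itgb8: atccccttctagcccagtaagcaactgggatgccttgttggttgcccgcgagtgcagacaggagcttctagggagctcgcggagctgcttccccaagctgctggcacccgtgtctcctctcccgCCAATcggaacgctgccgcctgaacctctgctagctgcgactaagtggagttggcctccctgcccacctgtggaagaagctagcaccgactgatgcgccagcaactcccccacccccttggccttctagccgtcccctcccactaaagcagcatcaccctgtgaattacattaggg
The Itgam window held 3 matches to GAGGAA, 1 on the plus and 2 on the minus strand, and 1 GC box on the minus strand. The Itgav window held 1 GC box and 2 matches to GAGGAA, and the Itgb8 window held 1 CCAAT box and no match to the other motifs. None of the 3 windows held TATAAA. Among all 32851 promoter windows of this length, 35.7% held a GC box, 37.4% a CCAAT box, 13.6% TATAAA and 28.3% GAGGAA. A window was found for 20 of the 28 integrins, and of their 22 windows 10 held a GC box, 4 a CCAAT box, none TATAAA and 10 GAGGAA. A match is a string of letters and not evidence of binding.

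Itgb8 and Itgav, whose products pair into the receptor that frees TGF-beta from its latent complex, rose together. Itgb8 (chr12:119158022-119238802, mm10) was at 40.4 and 40.3 CPM in the control mice and at 67.5 CPM in each surgery mouse. The groups did not overlap, and mice of a group differed by less than 1 CPM, so that Itgb8 had the lowest adjusted p of all members (log2 fold change 0.74, SE 0.07, edgeR adjusted p = 0.0043). Itgav (chr2:83724397-83806916) was at 35.5 and 38.7 CPM in control mice and at 51.9 and 60.3 CPM in surgery mice. Its 2 surgery mice were both above its 2 control mice, with a log2 fold change of 0.60 (SE 0.10, edgeR adjusted p = 0.0095). With length and GC correction, the log2 fold changes of Itgb8 and Itgav were 0.21 and 0.26 (edgeR adjusted p = 0.197 and 0.185). Itgb5, whose subunit also pairs with that of Itgav and binds vitronectin, moved the other way. It was at 57.8 and 60.5 CPM in control mice and at 47.1 and 48.9 CPM in surgery mice (chr16:33829665-33949153). The groups were again apart, and Itgb5 fell by 0.30 on the log2 scale (SE 0.08, edgeR adjusted p = 0.030), a fold of 0.812. This call was lost whichever mouse was left out (edgeR adjusted p between 0.057 and 0.129). The difference between the changes of Itgb8 and Itgb5 was not tested.

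**Figure D1:**
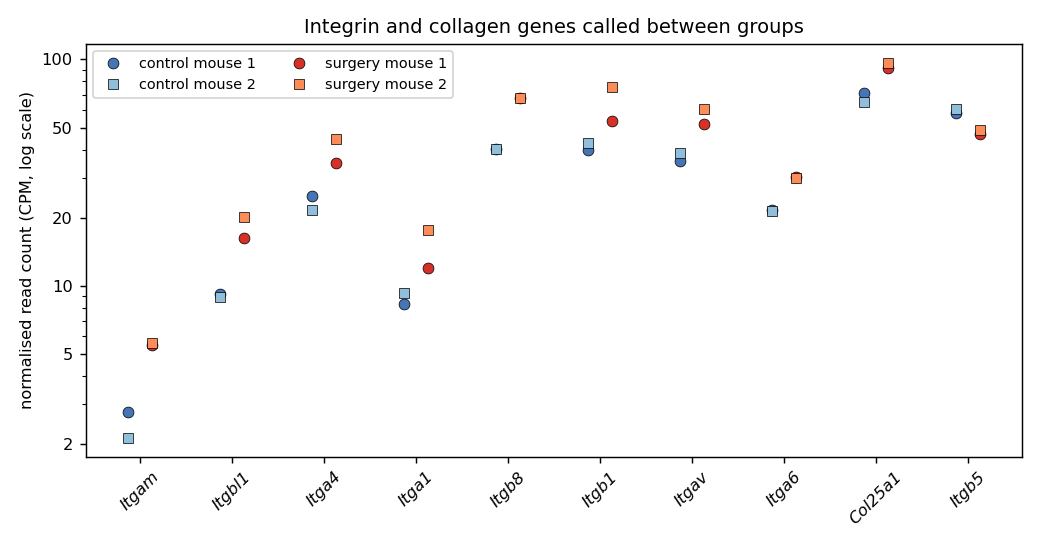
Normalised read counts in CPM (log axis) of the 9 integrins and the 1 collagen called between surgery and control, with 1 point for each mouse. Surgery mice lie above control mice for each gene except Itgb5, whose 2 surgery points (47.1 and 48.9 CPM) lie below both control points (57.8 and 60.5 CPM).

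The beta1 subunit, the common partner of most matrix-binding alpha subunits, and 3 of those alpha subunits also rose. Itgb1 (chr8:128685654-128733200) was at 39.7 and 42.6 CPM in control mice and at 53.7 and 75.8 CPM in surgery mice, a log2 fold change of 0.65 (SE 0.16, edgeR adjusted p = 0.028). Surgery mouse 2 stood well above surgery mouse 1, while the groups did not overlap. Without surgery mouse 2 the log2 fold change of Itgb1 was 0.39 (edgeR adjusted p = 0.048), and the call was lost without control mouse 1 (adjusted p = 0.063) and without control mouse 2 (adjusted p = 0.0503). Itga4, which with beta1 binds VCAM1 and fibronectin, was at 24.8 and 21.7 CPM in control mice and at 35.0 and 44.7 CPM in surgery mice. Both surgery mice were above both controls (log2 fold change 0.78, SE 0.14, edgeR adjusted p = 0.012). Itga6, a laminin-binding subunit, was at 21.5 and 21.4 CPM against 30.4 and 29.9 CPM, and its replicates were close in each group (0.49, SE 0.09, edgeR adjusted p = 0.013; adjusted p = 0.053 without control mouse 2). Itga1, a collagen-binding subunit, was lower in abundance, at 8.30 and 9.30 CPM in control mice and at 12.04 and 17.6 CPM in surgery mice. It passed the threshold narrowly, with a log2 fold change of 0.75 (SE 0.21, edgeR adjusted p = 0.043), and the call was lost without control mouse 1, control mouse 2 or surgery mouse 2 (adjusted p = 0.111, 0.078 and 0.169), at log2 fold changes of 0.67, 0.83 and 0.46. These p-values rest on the spread between 2 mice in each group, which edgeR moderates with the spread of the other genes.

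Itgam had the highest fold change of the called members. The subunit, also known as CD11b, marks microglia and other myeloid cells. Itgam (chr7:128062640-128118491) was at 2.79 and 2.13 CPM in control mice, from 48 and 39 counts, and at 5.46 and 5.57 CPM in surgery mice, from 87 and 94 counts. The surgery mice were above both controls, at 2.24 times their level (log2 fold change 1.17, SE 0.24, edgeR adjusted p = 0.016; adjusted p = 0.083 without control mouse 2). Itgb2, its partner subunit in Mac-1, did not move with it. Itgb2 was at 7.14 and 7.66 CPM in control mice and at 6.46 and 6.87 CPM in surgery mice, with a log2 fold change of -0.15 (SE 0.17, edgeR adjusted p = 0.561). Of the 12 microglial markers, 1 was called higher (P2ry12, 0.84, edgeR adjusted p = 0.0046) and none lower, and their sums were 430.4 and 409 CPM in control mice and 399.6 and 419 CPM in surgery mice. Of the 10 markers of neutrophils and other blood leukocytes only 3 passed the filter and none was called, the sums being 7.55 and 12.1 CPM in controls and 2.19 and 11.02 CPM after surgery, and 4 of those in the table were at 0 in some library. In the gene annotation, exons of Itgam overlap those of Gm49368 on the same strand, and 65.2% of the 75-base windows of its transcripts occur in another gene. How the counting divided such reads is not given in the sources used here, so the Itgam value is uncertain.

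The other leukocyte alpha subunits were scarce. Itgal, the alpha subunit of LFA-1, was at 1.10 and 2.02 CPM in control mice and 1.38 and 1.07 CPM in surgery mice, and these values overlapped. Itgad was at 0.70 and 0.60 CPM against 0.31 and 0.47 CPM, with the most negative log2 fold change among integrins (-0.70, SE 0.48, edgeR adjusted p = 0.323). Both Itgae (10, 3, 4 and 2 counts) and Itgax (7, 5, 4 and 7 counts), the subunit CD11c of dendritic cells, failed the filter. Itgb6 (1, 2, 2 and 5 counts) and Itgb2l (2, 18, 8 and 9 counts) failed it as well.

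Itgbl1 encodes a secreted protein with the cysteine-rich repeats of beta subunits. Itgbl1 (chr14:123659971-123975618) rose 2.01-fold, from 9.23 and 8.92 CPM in control mice to 16.2 and 20.1 CPM in surgery mice. Its groups were far apart (log2 fold change 1.00, SE 0.16, edgeR adjusted p = 0.0071). Among the integrins that missed the threshold, Itga8, an RGD-binding subunit of mesenchymal cells, came nearest. Itga8 was at 22.9 and 16.4 CPM in control mice and 27.0 and 32.5 CPM in surgery mice, without overlap (0.60, SE 0.18, edgeR adjusted p = 0.051). Itga8 was called with RLE size factors (edgeR adjusted p = 0.049), total-count scaling (edgeR adjusted p = 0.040) and DESeq2 (adjusted p = 0.021), but not without the filter. With length and GC correction its log2 fold change was 0.29 (edgeR adjusted p = 0.359). It was called without control mouse 1 or surgery mouse 1 (log2 fold changes 0.85 and 0.72), but not without control mouse 2 or surgery mouse 2. Itga5, the alpha subunit of the fibronectin receptor, had a larger estimate and a larger error (0.74, SE 0.41, edgeR adjusted p = 0.236), its values of 1.92, 3.39, 3.01 and 5.87 CPM overlapping between groups. Leaving out 1 mouse put that estimate at 0.39 (without control mouse 1), 1.21 (without control mouse 2), 1.12 (without surgery mouse 1) or 0.18 (without surgery mouse 2). The laminin-binding subunits Itga3 and Itga7 had log2 fold changes of -0.32 and -0.25 (edgeR adjusted p = 0.232 and 0.111). The remaining integrins tested had log2 fold changes from -0.62 (Itga2b, the platelet subunit) to 0.64 (Itga2, a collagen-binding subunit), with edgeR adjusted p from 0.245 to 0.969. They were Itga2b, Itga2, Itga9, Itga10, Itga11, Itgb3, Itgb4 and Itgb7, of which Itga2 and Itga10 had both surgery mice above both controls and Itga2b both below. Per kilobase of exon, the integrins with the highest levels were Itgb5 at a mean of 15.1 CPM per kb, Itgb1 at 12.98, Itga7 at 5.25, Itga3 at 5.002 and Itgb8 at 4.88. Of these 5, Itgb1 and Itgb8 rose, Itgb5 fell and Itga7 and Itga3 were not called.

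The integrins that rose also shared a property that the choice of members did not use, a low GC content of the transcript. The 8 had between 40.4% and 48.9% GC, while Itgb5, which fell, had 57.0%. Of the 10 tested integrins under 50% GC, 8 were called higher, against 24.2% of all genes under 50% GC, and of the 14 at or over 50% GC none was called higher and 1 lower, against 77 higher and 1972 lower of the 8149 genes in that band. The median log2 fold change was 0.70 in the former and -0.26 in the latter, beside 0.25 and -0.22 in all genes of these bands. In all genes tested, the fold change moved with GC content too, with Spearman's rho of -0.63 across genes, and rho was -0.73 across the 24 integrins, -0.12 across the 43 collagens and -0.31 across the 11 laminins, as a description of genes measured in the same 4 libraries. With a correction for transcript length and GC content within each library, 0 integrins were called in either direction (edgeR), beside 0.631% of all genes called higher and 1.9% lower. The corrected median log2 fold change was 0.23 in integrins, 0.31 in collagens and 0.16 in laminins, against -0.035 in all genes tested. Spearman's rho of the corrected fold change with GC content was -0.45 across integrins and -0.01 across all genes. The corrected log2 fold changes of the 8 ranged from 0.21 to 1.12, with edgeR adjusted p between 0.064 and 0.326. Itgam and Itga6 moved little under the correction, to 1.12 (edgeR adjusted p = 0.064) and 0.44 (edgeR adjusted p = 0.069). Itgb8 moved from 0.74 to 0.21 (edgeR adjusted p = 0.197), Itgav from 0.60 to 0.26, Itga4 from 0.78 to 0.29 and Itga1 from 0.75 to 0.37. Itgbl1 moved from 1.00 to 0.54 and Itgb1 from 0.65 to 0.39. Itgb5, which fell, moved from -0.30 to -0.05 (edgeR adjusted p = 0.728). The part of GC content in these changes was not tested.

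**Figure D2:**
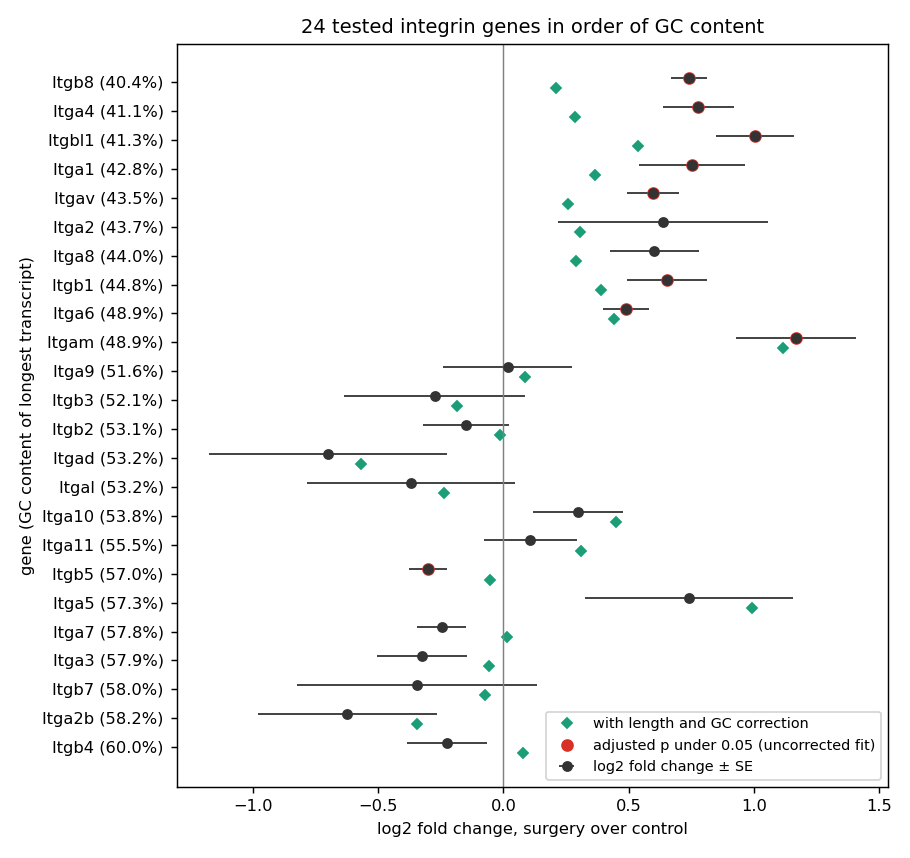
Log2 fold change of surgery over control for the 24 tested integrins, ordered by the GC content of the longest transcript (in parentheses); circles with bars show the estimate and its SE, red circles an adjusted p under 0.05, and diamonds the estimate after length and GC correction. The 8 integrins that rose lie under 50% GC, and their diamonds (0.21 to 1.12) lie to the right of 0 without passing the threshold.

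**Figure D3:**
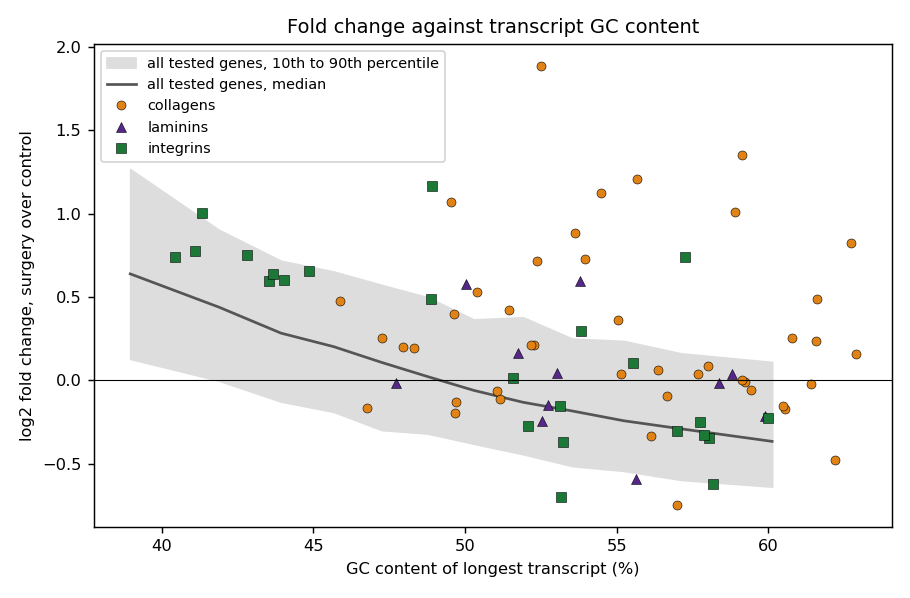
Log2 fold change of surgery over control against transcript GC content (%) for members, over the median and the 10th to 90th percentile of all tested genes in GC bins. Integrins follow the downward course of all genes (rho -0.73 and -0.63), while the collagens, most of them at or over 50% GC, spread around it (rho -0.12).

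Collagen transcripts showed little that passed the test. Of 43 collagens tested, 1 rose (Col25a1), none fell and none was a DEG, beside the 13.1% and 12.8% of all genes called in the respective directions. By DESeq2, 2 rose and none fell, beside 1829 and 2106 of all genes. An unadjusted p under 0.05 in edgeR was found in 7 of the 43 collagens and in 6748 of all 17144 genes. In 10 collagens both surgery mice were above both control mice and in none both were below, beside 33.2% and 32.2% of all genes. The median log2 fold change of the collagens was 0.20, within a range of -0.75 to 1.89, and their median SE was 0.30 against 0.14 in all genes tested. Leaving out 1 mouse changed the number called higher to 2 without control mouse 1, 6 without control mouse 2, 9 without surgery mouse 1 and 3 without surgery mouse 2, with 1 called lower without control mouse 1 or surgery mouse 1. In the same fits, in that order, 1785, 1201, 2025 and 1586 of all genes were called higher and 1717, 1207, 2080 and 1347 lower. It moved the median to between -0.021 (without surgery mouse 2) and 0.40 (without control mouse 2).

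Col25a1 (chr3:130131501-130599877) encodes a transmembrane collagen of neurons whose shed ectodomain is found in amyloid plaques. It was at 70.9 and 64.7 CPM in control mice and at 91.6 and 96.8 CPM in surgery mice. The groups did not overlap, and the fold of 1.39 was below the DEG limit (log2 fold change 0.47, SE 0.08, edgeR adjusted p = 0.0081). Its transcript has 45.9% GC, the lowest of the tested collagens, and with length and GC correction its log2 fold change was 0.26 (edgeR adjusted p = 0.121). Under that correction Col5a3, a chain of the fibrillar type V collagen, was called instead (0.82, edgeR adjusted p = 0.046). Col5a3 was at 7.66 and 8.37 CPM in control mice and 11.3 and 11.2 CPM in surgery mice, and without the correction it missed the threshold (0.49, SE 0.15, edgeR adjusted p = 0.055).

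None of the 6 type IV collagens of basement membranes was called. Col4a1 and Col4a2, which together build the common type IV trimer, lie head to head on chromosome 8 and their annotated 5′ ends overlap by 22 bases. Their promoter windows are shown because a single stretch of DNA serves as promoter for both. The windows are chr8:11312777-11313076 on the minus strand for Col4a1 and chr8:11312555-11312854 on the plus strand for Col4a2 (RefSeq, GRCm38.p6), each 5′ to 3′, and capitals mark the 78 bases that the windows have in common, read from opposite strands.
Col4a1: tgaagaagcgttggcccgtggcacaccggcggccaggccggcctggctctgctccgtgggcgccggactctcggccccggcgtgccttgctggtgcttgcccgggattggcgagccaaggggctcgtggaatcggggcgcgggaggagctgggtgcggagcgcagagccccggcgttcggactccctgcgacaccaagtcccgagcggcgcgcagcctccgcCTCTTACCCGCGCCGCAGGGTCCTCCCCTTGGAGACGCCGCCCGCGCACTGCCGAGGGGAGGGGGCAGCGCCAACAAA
Col4a2: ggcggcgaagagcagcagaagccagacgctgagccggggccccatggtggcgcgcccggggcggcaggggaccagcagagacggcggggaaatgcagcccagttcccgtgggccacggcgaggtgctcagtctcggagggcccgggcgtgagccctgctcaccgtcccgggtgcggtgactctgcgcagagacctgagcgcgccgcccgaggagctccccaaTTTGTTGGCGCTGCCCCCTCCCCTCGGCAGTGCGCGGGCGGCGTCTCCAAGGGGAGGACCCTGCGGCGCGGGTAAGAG
Col4a1 was at 87.1 and 74.7 CPM in control mice and 79.4 and 86.5 CPM in surgery mice (log2 fold change 0.04, SE 0.10, edgeR adjusted p = 0.808). Col4a2 was at 117 and 96.0 CPM against 96.9 and 92.4 CPM (-0.17, SE 0.10, edgeR adjusted p = 0.268). Both pairs of groups overlapped, and the ratio of Col4a1 to Col4a2 in CPM was 0.742 and 0.778 in control mice and 0.819 and 0.936 in surgery mice. Of the 44 collagens, 35 had at least 1 window, and of their 38 windows 23 held a GC box, 13 a CCAAT box, 5 TATAAA and 13 GAGGAA. Per kilobase of exon, the collagens with the highest mean levels were Col6a1 at 16.6 CPM per kb, Col4a2 at 15.2, Col9a3 at 13.4, Col4a1 at 10.97 and Col25a1 at 6.26. Col6a1, a chain of the beaded filaments of type VI collagen, was at 70.6 and 79.8 CPM in control mice and 58.6 and 82.7 CPM in surgery mice, so that it was both lowest and highest in a surgery mouse.

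A group of 6 collagens differed more than 2-fold between the control mice themselves, namely Col9a3, Col8a2, Col8a1, Col4a3, Col4a4 and Col17a1. Such a difference was found in 4.602% of all genes tested. Col9a3, a chain of the fibril-associated type IX collagen, was at 11.96 and 91.4 CPM in control mice and at 39.7 and 63.4 CPM in surgery mice. The surgery mice thus lay between the control mice, and the log2 fold change was -0.01 with an SE of 0.76. Col8a1 and Col8a2, the chains of the hexagonal network of type VIII collagen, were at 1.28 and 17.2 CPM and at 2.90 and 22.1 CPM in the control mice, and at 4.58 and 12.03 CPM and 9.84 and 15.4 CPM in the surgery mice. Col4a4, which with Col4a3 and Col4a5 forms the type IV trimer of specialised basement membranes, had the same order with 1.22, 8.64, 3.57 and 5.63 CPM. The order control mouse 1, surgery mouse 1, surgery mouse 2, control mouse 2 was found in 5 of the 43 collagens, in 2.60% of all genes tested, and in 9 of the 10 choroid plexus markers. Ttr, the transthyretin gene of the choroid plexus epithelium, was at 90.9 and 5078 CPM in control mice and at 1914 and 3255 CPM in surgery mice. None of the choroid plexus markers was called, with a median log2 fold change of -0.14, and the part of choroid plexus RNA in these collagen values was not tested. Without control mouse 2, 5 of these 6 (Col9a3, Col8a2, Col8a1, Col4a3 and Col4a4) were called higher, and without control mouse 1, Col9a3 was called lower. Each of these fits sets 1 control mouse, of a pair picked for its difference, against the surgery mice and takes the spread from the surgery mice alone.

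The fibrillar collagens type I and III, made by fibroblasts of the meninges and vessel walls, were highest in surgery mouse 2. Col1a1 was at 8.77 and 8.15 CPM in control mice and at 9.66 and 24.3 CPM in surgery mice (log2 fold change 1.01, SE 0.40, edgeR adjusted p = 0.114), and was called by DESeq2 (adjusted p = 0.028). Col1a2 was at 9.98 and 12.5 CPM against 12.4 and 39.4 CPM (1.21, SE 0.49, edgeR adjusted p = 0.120). Col3a1 had the highest log2 fold change of all members, 1.89 (SE 0.67, edgeR adjusted p = 0.085), from 1.22 and 1.64 CPM in control mice and 2.13 and 8.41 CPM in surgery mice. In each of these genes surgery mouse 1 was close to the controls. The transmembrane Col13a1, at 0.87, 1.48, 1.00 and 4.98 CPM, had the second highest fold change of the members that missed the threshold (1.35, SE 0.74, edgeR adjusted p = 0.224). In all, 9 collagens were more than 2-fold higher in surgery mouse 2 than in surgery mouse 1, beside 3.56% of all genes tested. The 10 markers of fibroblasts and meninges summed to 232 and 425 CPM in control mice and to 253 and 617 CPM in surgery mice. Of them, 8 were highest in surgery mouse 2, beside 4877 of all 17144 genes. So were 11 of 12 endothelial markers and 6 of 9 tested markers of pericytes and smooth muscle. In the fibroblast list 1 was called higher (Ogn, 1.79, edgeR adjusted p = 0.040), and the median was 0.63. Slc6a13, a transporter on that list, was at 5.57 and 5.74 CPM in control mice and 6.90 and 34.9 CPM in surgery mice. The part of these cells in the collagen values was not tested. Without surgery mouse 1, Col1a1, Col1a2, Col3a1 and Col13a1 were among the 9 collagens called higher, in a fit where surgery mouse 2 alone stood against the controls and the spread came from the control mice. Without surgery mouse 2 the log2 fold change of Col3a1 was 0.57 (edgeR adjusted p = 0.420) and that of Col13a1 was -0.23.

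Of the 6 type VI chains, Col6a3 and Col6a4 were more than 1.5 times as high in surgery mouse 1 as in surgery mouse 2, while Col6a1, Col6a2 and Col6a6 were higher in surgery mouse 2. Col6a3 was at 5.22 and 6.35 CPM in control mice and at 19.0 and 6.46 CPM in surgery mice (log2 fold change 1.13, SE 0.48, edgeR adjusted p = 0.133). Col6a4 was at 5.81 and 8.15 CPM against 14.99 and 8.30 CPM (0.73, SE 0.31, edgeR adjusted p = 0.138). In both, surgery mouse 1 alone was high. Both were called higher without surgery mouse 2, a fit that sets surgery mouse 1 alone against the controls and takes the spread from the control mice. Of the 9 fibril-associated collagens (FACIT), Col19a1, which some hippocampal interneurons express, was most even between mice of a group, at 24.03 and 24.2 CPM in control mice and 28.3 and 29.3 CPM in surgery mice (0.26, SE 0.09, edgeR adjusted p = 0.089). Col10a1, the collagen of hypertrophic cartilage, had 0, 0, 2 and 3 counts and was the only collagen that failed the filter. The collagens not yet named were not called, with log2 fold changes from -0.47 (Col2a1, of cartilage) to 1.07 (Col28a1) and edgeR adjusted p from 0.123 to 0.915. They were the fibrillar Col2a1, Col5a1, Col5a2, Col11a1, Col11a2, Col24a1 and Col27a1, the fibril-associated Col9a1, Col9a2, Col12a1, Col14a1, Col16a1, Col20a1 and Col22a1, and Col4a6, Col6a5, Col7a1, Col15a1, Col18a1, Col23a1, Col26a1 and Col28a1. Among these, Col7a1, Col22a1 and Col28a1 had both surgery mice above both controls. Col11a2 and Col5a1 were the most abundant in CPM, Col11a2 at 43.9 and 36.2 CPM in control mice and 47.8 and 41.5 CPM in surgery mice, and Col5a1 at 30.3 and 37.3 CPM against 31.4 and 40.4 CPM. Col9a2, Col18a1, Col4a6 and Col6a6 were more than 2-fold higher in surgery mouse 2 than in surgery mouse 1.

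**Figure D4:**
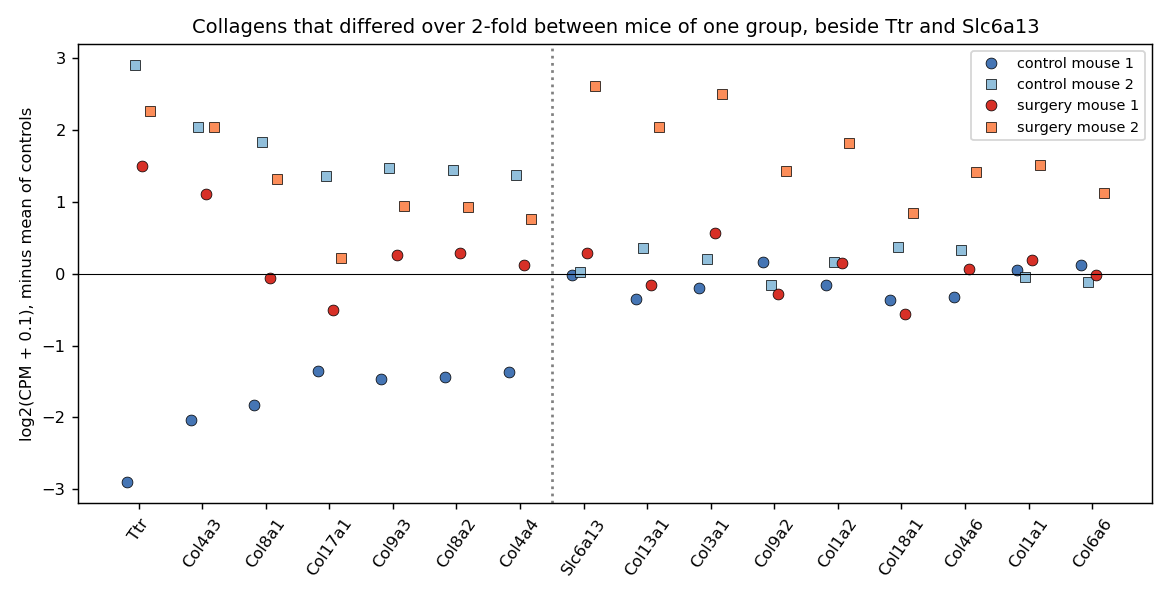
Level of collagens in each mouse as log2(CPM + 0.1) minus the mean of the control mice, with 1 point for each mouse. Left of the dotted line the choroid plexus gene Ttr stands before the 6 collagens that differed over 2-fold between controls, and right of it Slc6a13, a marker of meningeal fibroblasts, stands before 8 collagens that are highest in surgery mouse 2.

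No laminin was called in either direction. Of the 11 laminins tested, 0 were called by edgeR, beside the 13.1% and 12.8% of all genes, and 0 by DESeq2. An unadjusted p under 0.05 in edgeR was found in 2 of the 11, beside 6748 of all 17144 genes, and the lowest adjusted p was 0.071. Their median log2 fold change was -0.01, within a range of -0.59 to 0.60, and the median was -0.22 without surgery mouse 2 and 0.20 without control mouse 2. The 5 highest per kilobase of exon were Lamb2 at a mean of 9.28 CPM per kb, Lamc1 at 5.78, Lamb1 at 5.23, Lama5 at 3.94 and Lamc3 at 1.86. The beta1 chain Lamb1, a part of the laminins of developing and vascular basement membranes, came nearest to the threshold. Lamb1 was at 53.7 and 58.6 CPM in control mice and 48.0 and 47.0 CPM in surgery mice, without overlap (log2 fold change -0.24, SE 0.08, edgeR adjusted p = 0.071). Lamb3, the beta chain of epithelial laminin-332, was at 3.77 and 3.94 CPM against 2.51 and 2.61 CPM, also without overlap (-0.59, SE 0.24, edgeR adjusted p = 0.115).

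The alpha chains, which carry the integrin-binding end of the trimer, gave no called member. Lama1, abundant in meningeal basement membrane, was at 5.75 and 6.57 CPM in control mice and 5.33 and 13.2 CPM in surgery mice (log2 fold change 0.60, SE 0.40, edgeR adjusted p = 0.318). Surgery mouse 2 alone was high, and without it the log2 fold change was -0.20. Lama4, of vascular basement membrane, was at 5.51 and 4.76 CPM in control mice and 5.71 and 9.60 CPM in surgery mice (0.58, SE 0.28, edgeR adjusted p = 0.180). Lama3, the alpha chain of laminin-332, was at 7.72 and 8.32 CPM against 9.41 and 8.59 CPM (0.16, SE 0.16, edgeR adjusted p = 0.494). In both Lama3 and Lama4 the surgery mice were above the control mice, so that 2 laminins lay above and 2 below without overlap, beside 33.2% and 32.2% of all genes. Lama5 was at 35.6 and 60.7 CPM in control mice and 32.0 and 51.0 CPM in surgery mice, and Lamb2 at 49.8 and 61.7 CPM against 45.6 and 68.9 CPM. In both, the mice numbered 2 were above the mice numbered 1, and the groups overlapped. Lamc1, the gamma chain of most laminins, was at 43.6, 50.7, 43.4 and 53.7 CPM, and Lama2, the alpha chain of glial and muscle basement membranes, at 16.6, 20.02, 17.8 and 18.5 CPM. With surgery mouse 1 left out, so that surgery mouse 2 alone stood against the controls, 2 laminins (Lama1 and Lama4) were called higher, beside 2025 of all genes. Promoter windows were found for 5 of the 11 laminins, and of these 6 windows 3 held a GC box, 1 a CCAAT box, none TATAAA and 5 GAGGAA.

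**Figure D5:**
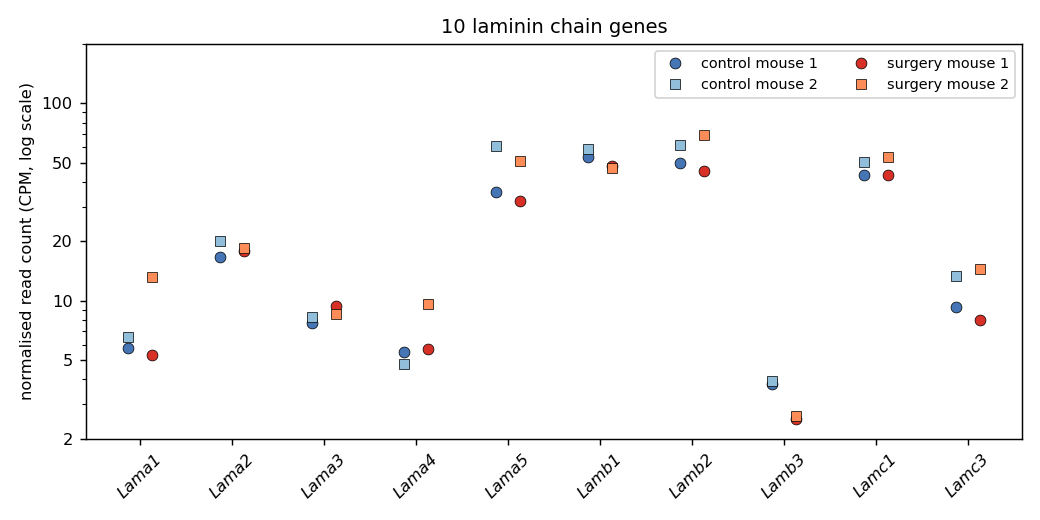
Normalised read counts in CPM (log axis) of 10 laminin genes, with 1 point for each mouse. Control and surgery points overlap for most genes, Lamb1 and Lamb3 have both surgery points below both control points, Lama3 and Lama4 have both above, and Lama1 is high in surgery mouse 2 alone (13.2 CPM).

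Genes that make, bind or remodel the matrix were followed in 5 lists, whose counts stand beside the 13.1% of all genes called higher and the 12.8% called lower. Of 12 other basement membrane components, 1 fell (Agrn, the heparan sulphate proteoglycan agrin, from 393 and 382 CPM to 296 and 294 CPM, edgeR adjusted p = 0.0060) and none rose, with a median log2 fold change of -0.03. Of 20 tested genes of collagen processing, P4ha1, a prolyl hydroxylase subunit, and Plod2, a lysyl hydroxylase, rose by 0.74 and 0.76 on the log2 scale (edgeR adjusted p = 0.013 and 0.046). Colgalt1, a collagen galactosyltransferase, fell by 0.33 (edgeR adjusted p = 0.032), and the median of the list was -0.13. Of 11 matrix proteases and their inhibitors, 2 fell and none rose (Mmp17 by 0.52 and Timp4 by 0.39, edgeR adjusted p = 0.022 and 0.027), with a median of -0.16. Of 6 other matrix receptors, Cd44, the hyaluronan receptor, rose by 0.93 and Ddr1, a collagen receptor kinase, fell by 0.38 (edgeR adjusted p = 0.032 and 0.020), and the median was 0.09. Of 20 adaptors and kinases on the cytoplasmic side of integrins, 5 fell and 1 rose, with a median of -0.15. Those that fell were Zyx (zyxin, by 0.63), Src (by 0.52), Bcar1 (the Src substrate p130Cas, by 0.44), Ptk2b (the kinase Pyk2, by 0.35) and Tln2 (talin 2, by 0.33), with edgeR adjusted p between 0.0049 and 0.010, and Lims1 (PINCH1) rose by 0.49 (edgeR adjusted p = 0.030). With length and GC correction, under which 0.631% of all genes were called higher and 1.9% lower, Timp4 was still called (-0.50, edgeR adjusted p = 0.047), and the other 13 called genes of these lists were not.

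Markers of the cells that make or carry these proteins are given beside them, with the same 13.1% and 12.8% of all genes as background. Of 12 endothelial markers 3 rose and none fell, with a median log2 fold change of 0.28 and sums of 316 and 333 CPM in control mice and 340.5 and 460.2 CPM in surgery mice. Of 9 tested markers of pericytes and smooth muscle 1 rose and 1 fell, with a median of 0.56 and sums of 301, 275, 297 and 487 CPM. In both lists surgery mouse 2 had the highest sum. Of 8 astrocyte markers 3 rose and 1 fell (median -0.02, sums from 3578 to 4305 CPM), of 8 oligodendrocyte markers 1 rose and none fell (median -0.23, sums from 4071 to 6368 CPM), and of the 8 neuronal markers 1 rose and 3 fell (median -0.12). With length and GC correction, none of the called genes of the cell type lists, P2ry12 and Ogn included, was called. The part of these cells in the values of the collagens, laminins and integrins was not tested.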

How the data were processed

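RNA from the hippocampus of 2 control and 2 surgery mice was sequenced by the authors (oligo-dT enriched mRNA, paired ends, mm10), and the deposited table gives raw read counts per gene. The submitters' processing notes name HISAT2 2.1.0, Bowtie2 2.2.3, TopHat2 and HTSeq 0.6.0 without a role, and whether strand was used in counting is not given in the sources used here. The authors' own mean, fold-change and p-value columns were not used. Counts were fitted with edgeR 4.0.16 (R 4.3.3) by its quasi-likelihood F test with TMM factors (0.982 to 1.02), after filterByExpr with a minimum count of 10, on all genes. GENCODE M21 gave transcript length and GC content (longest transcript), and held 79 of the 83 members at the same coordinates. Promoter windows came from RefSeq. Replicates of a group differed by more than sampling noise (chi-square per degree of freedom 13.4 in control and 8.45 in surgery mice). The edgeR p-values rest on the spread between these mice, moderated over all genes. Each SE is the absolute log2 fold change divided by the square root of the F statistic. Members were named, except 1 laminin that is not reported here singly, with full statistics for those called, levels for the 5 highest per kilobase in each family, values for the 2 largest uncalled changes in each family, and up to 5 called genes of each matrix list, cell type lists being given by counts. The members and lists were chosen with earlier results of these data known. Alternatives were total-count scaling, relative log expression (RLE) size factors, no filter, DESeq2 1.42.0, a smooth correction of each library for length and GC (mgcv 1.9.3), the replicate number as a block, and leaving out each mouse. The fits were tested on simulated data.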

Additional observations from a re-analysis of the deposited data

How the results depend on the processing

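With 2 mice a group, several counts moved with single libraries. The depth left 5 members under the filter on low counts. Of the 10 members called, 10 were still called with RLE size factors, 9 of the 9 with an adjusted p by DESeq2, 9 with total-count scaling, 7 without the filter and 0 with length and GC correction. DESeq2 gave no adjusted p for Itgam, so its call was not checked by that tool. Integrins called higher numbered 8, and 0 with length and GC correction, and from 4 to 9 on leaving out 1 mouse. Integrins called lower numbered 1, and 0 with total-count scaling, without the filter and with length and GC correction, and from 0 to 1 on leaving out 1 mouse, where the 1 was Itga3 without control replicate 1 and Itgb5 was called in none of these fits. The integrin median of 0.20 was 0.051 without the filter, when the 4 scarce members entered, and from 0.13 to 0.33 on leaving out 1 mouse. Collagens called higher numbered 1, and 2 with total-count scaling and 2 by DESeq2, and from 2 to 9 on leaving out 1 mouse, and those called lower from 0 to 1. The collagen median of 0.20 ran from -0.021 to 0.40, and laminins called higher from 0 to 2, on leaving out 1 mouse. The log2 fold change of Col13a1 ran from -0.23 (without surgery replicate 2) to 2.05 and that of Lama1 from -0.20 (without surgery replicate 2) to 1.08 on leaving out 1 mouse. In all genes, those called higher and lower numbered 2250 and 2199, and 1315 and 1350 without the filter, and 108 and 325 with length and GC correction. Except for the filter, the cause was not tested.

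Control and surgery mice share the replicate numbers 1 and 2, which the labels tie to no batch, and the deviations of same-numbered mice correlated with r = 0.22 over genes in only 2 pairs, so the numbers were read as names. With the replicate number as a block, 4 collagens were called higher (Col25a1, Col3a1, Col1a2 and Col23a1). In that fit 9 integrins were called higher and 2 lower, beside 2655 higher and 2626 lower of 17144 genes. With the block and the length and GC correction together, 9 of 43 collagens and 5 of 24 integrins were called higher and 0 integrins lower, beside 687 higher and 1621 lower of 17120 genes.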
